A study of Homo sapiens with 37 samples.

Results

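The 9 mRNAs described here encode growth and survival proteins whose translation is known to be sensitive to eIF4F, the cap-binding complex that starts translation of most mRNAs. They are MYC (ENSG00000136997), CCND1 (ENSG00000110092), CCND3 (ENSG00000112576), CDK4 (ENSG00000135446), MCL1 (ENSG00000143384), BCL2L1 (ENSG00000171552), ODC1 (ENSG00000115758), VEGFA (ENSG00000112715) and BIRC5 (ENSG00000089685). The choice was by name, and they were found by Ensembl ID among 60483 IDs in each of 2 count tables, and all 9 passed the filter on low counts in both. Their abundance near 2 subunits of eIF4F was measured by APEX labelling in HEK293T, an established line of human embryonic kidney origin. In this assay a peroxidase fused to a protein of interest attaches biotin-phenol to nearby RNA. Biotinylated RNA bound to streptavidin is called the pulldown, and total RNA of cells with the same construct is called the input.

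Unstressed (Naive) cells carried APEX-eIF4E, APEX-eIF4A, APEX-CBX1, C1-APEX or APEX-GFP, each with 2 pulldowns and 2 inputs. APEX-eIF4A cells made up all of the second table: hippuristanol (2 pulldowns, 2 inputs), DMSO (2 pulldowns, 1 input), and heat shock at T0 (unstressed), T4 and T20, where T0 and T20 had 2 libraries per fraction and T4 had 1. No label states the unit of T. The hippuristanol inputs carry a heat shock label although their titles read hip, and every population compared carried an APEX fusion. Labelling used 500 µM biotin-phenol for 30 min and 1 mM H2O2 for 1 min in all samples.

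As background, eIF4E binds the 5′ cap of an mRNA, eIF4A is an ATP-dependent RNA helicase that opens structure in the 5′ leader, and eIF4G joins them. mRNAs with long or structured leaders, among them many that drive proliferation and block cell death, depend most on this helicase. Hippuristanol is an inhibitor of eIF4A, and heat shock lowers cap-dependent translation as a whole. CBX1 is a chromatin protein, and the GFP fusion has no partner in translation.

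Total counts were 1419968 to 2629957 in the 10 inputs and 1718517 to 3276410 in the 10 pulldowns of unstressed cells, of which the 10 highest IDs took 68.6% to 75.3% in inputs and 55.6% to 70.0% in pulldowns. The second table had 4540426 to 7782943 counts in its 8 inputs and 707356 to 1221213 in its 9 pulldowns. Some libraries stood apart. The 2 C1-APEX pulldowns correlated at 0.898 across IDs, against 0.958 or more for every other replicate pair of unstressed cells, and the 2 DMSO pulldowns at 0.543, the 2 T0 pulldowns at 0.601 and the 2 T20 pulldowns at 0.671, against 0.864 to 0.949 for pairs of inputs in that table (IDs are not independent replicates). The T0 inputs were the pair at 0.864, and the 2 hippuristanol pulldowns correlated at 0.740. In T0 pulldown replicate 2 the 10 highest IDs took 44.1% of counts, the most of the 9 pulldowns. Whether replicates came from separate cultures is not stated, and the p-values cover only how much these libraries varied, possibly for technical reasons. Marker genes of HEK293T cells and of other cell types were not checked here, since no table used here pairs Ensembl IDs with other gene names.

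Levels are given as CPM, counts divided by the library's total so that depths can be set side by side, scaled by TMM, a factor per library that sets the bulk of RNAs level with each other. They are relative: less RNA of a kind per cell and fewer cells that hold it cannot be told apart, and values of the 2 tables are not compared. On GRCh38, RefSeq places CCND1 on chromosome 11 (69641156 to 69654474), CCND3 and VEGFA on chromosome 6 (41934933 to 42050035 and 43770211 to 43786487), and MCL1 on chromosome 1 (150574558 to 150579610). BCL2L1 lies on chromosome 20 (31664452 to 31723963), BIRC5 on chromosome 17 (78214253 to 78225635) and MYC on chromosome 8. CDK4 (chromosome 12, 57747727 to 57752310) shares 2493 bases with TSPAN31, ODC1 (chromosome 2, 10439968 to 10448327) contains the snoRNA gene SNORA80B, and BCL2L1 overlaps BCL2L1-AS1. CCND3 shares 26096 bases with the long noncoding RNA gene LOC105375059. The strand setting of the counting is not given in the sources used here. Counts of CCND3, CDK4, ODC1 and BCL2L1 may thus include reads of those overlapping genes.

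VEGFA, the vascular endothelial growth factor, was the member that differed between the cell populations before any pulldown. In inputs it measured 33.9 and 49.3 CPM in eIF4E cells and 36.3 and 44.8 CPM in eIF4A cells, against 19.97 and 14.7 CPM in GFP cells. The levels of both eIF4 populations lay above both GFP inputs. The C1 inputs held 35.7 and 33.5 CPM and the CBX1 inputs 23.9 and 15.2 CPM, so the C1 population lay near the eIF4 populations and the CBX1 population near GFP. VEGFA thus rose 2.42-fold in eIF4E inputs over GFP inputs (log2 fold change 1.28 ± 0.29, SE; edgeR quasi-likelihood test, adjusted p = 0.0156) and 2.37-fold in eIF4A inputs (1.25 ± 0.29; edgeR adjusted p = 0.0434).

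These calls are 1 of 9 members in each comparison, where 2.78% of 12427 tested IDs were called for eIF4E and 0.579% for eIF4A. An unadjusted p under 0.05 was reached by VEGFA in eIF4E (13.7% of all IDs) and by VEGFA and CCND1 in eIF4A (8.64%). They rested on few libraries. With 1 input left out, the call for eIF4E was lost without eIF4E replicate 2, GFP replicate 1 or GFP replicate 2 (log2 fold change 0.94, 1.498 and 1.05), and the call for eIF4A was lost in each of its 4 such fits (1.02 to 1.46). Scaling by library size in place of TMM gave 0.90 and 0.88 (edgeR adjusted p = 0.0960 and 0.134). Over all IDs the median with that scaling was -0.36 for eIF4E and -0.37 for eIF4A.

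CCND1 and CCND3, the D-type cyclins that activate CDK4 in G1, were low in the eIF4A inputs. CCND1 measured 16.7 and 11.6 CPM in eIF4A inputs and 39.0 and 42.6 CPM in eIF4E inputs, against 25.9 and 34.8 CPM in GFP inputs. The C1 inputs, at 16.0 and 23.9 CPM, overlapped with the eIF4A inputs. The eIF4A values lay below all 4 eIF4E and GFP values, with a log2 difference from GFP of -1.16 ± 0.31 (SE; edgeR adjusted p = 0.0845), which did not pass in the table as a whole. It passed with only the libraries compared (-1.14, edgeR adjusted p = 0.0171), where 5.38% of all IDs were called. With library size it passed at -1.52 (edgeR adjusted p = 0.00591), where 3.53% of IDs were called and the median over all IDs was -0.37. It also passed without a count filter (-1.19, edgeR adjusted p = 0.0483), where 0.268% of IDs were called. It did not pass with a replicate block (-1.16, edgeR adjusted p = 0.0991) or with any 1 input left out (-1.38 to -0.87, edgeR adjusted p = 0.192 to 0.803), and DESeq2 gave it no adjusted p. CCND3 was at 11.8 and 8.55 CPM in eIF4A inputs and at 18.2 and 17.9 CPM in GFP inputs (log2 difference -0.87 ± 0.45; edgeR adjusted p = 0.630), and the eIF4A values rest on 12 and 17 counts. The C1 inputs held 13.5 and 9.57 CPM of CCND3.

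MYC, the transcription factor that drives growth and ribosome production, measured 86.4 and 79.3 CPM in eIF4E inputs and 55.0 and 54.3 CPM in eIF4A inputs, against 64.4 and 63.2 CPM in GFP inputs. On this scale the 3 populations did not overlap, and the eIF4E difference from GFP was 0.37 ± 0.20 in log2 (SE; edgeR adjusted p = 0.427). Scaled by library size, MYC overlaps at 68.6 and 55.4 CPM in eIF4E inputs and 62.5 and 58.9 CPM in GFP inputs. The difference was then 0.0199 (edgeR adjusted p = 0.98), beside a median of -0.36 over all IDs. Counted over the members, levels did not overlap with GFP inputs for 7 of 9 in eIF4E and 7 of 9 in eIF4A, beside 52.6% and 46.8% of all tested IDs.

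**Figure D1:**
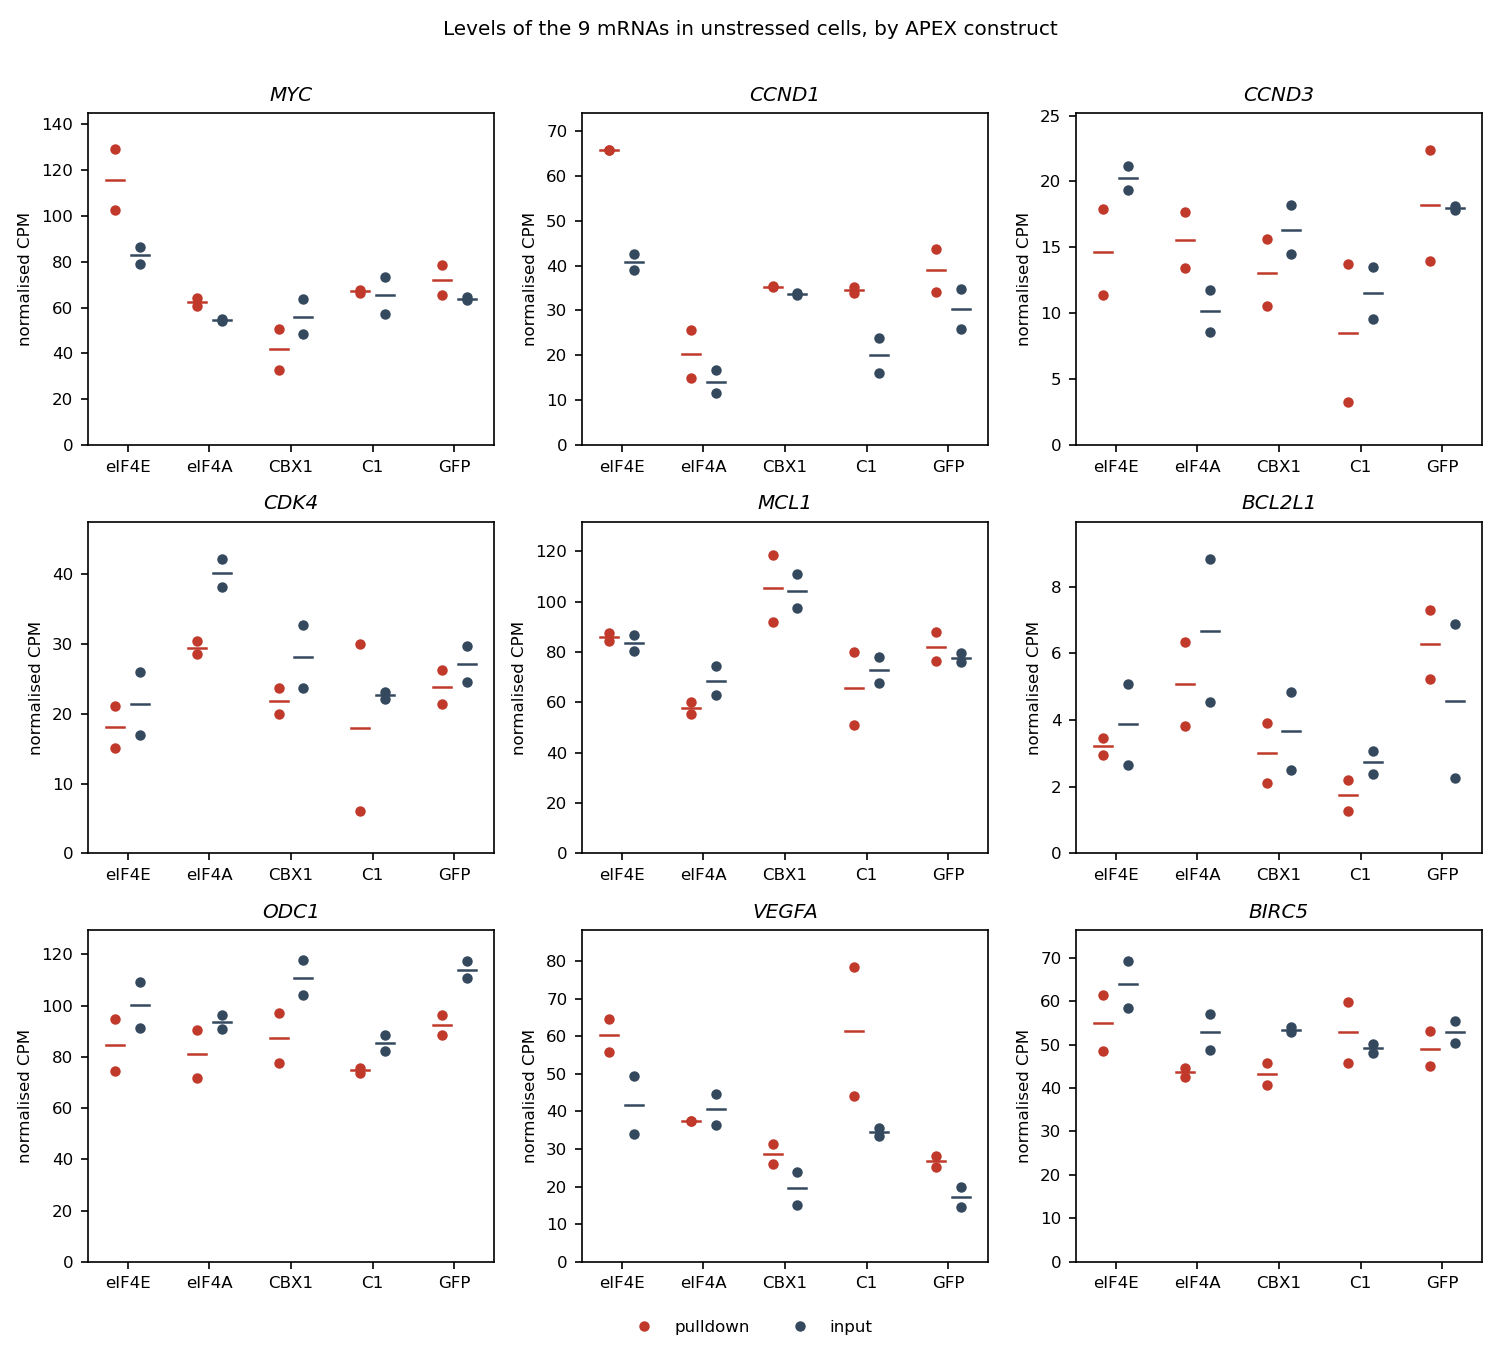
TMM-normalised CPM (vertical axis, from 0) of each member in unstressed cells, by APEX construct. Each point is 1 library (red, pulldown; dark, input) and each bar is the mean of 2. VEGFA lies lowest in GFP and CBX1 cells, and MYC and CCND1 are highest in the eIF4E pulldown.

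The pulldown of the cap-binding protein held more MYC and CCND1 than any other unstressed library. MYC measured 129 and 102 CPM in the eIF4E pulldowns, against 86.4 and 79.3 CPM in their inputs, and CCND1 measured 65.8 and 65.7 CPM against 39.0 and 42.6 CPM. In both genes each pulldown lay above each input, by a log2 fold change of 0.48 ± 0.19 for MYC and 0.68 ± 0.24 for CCND1 (SE; edgeR adjusted p = 0.249 and 0.174). VEGFA was at 55.9 and 64.5 CPM in the eIF4E pulldowns and 33.9 and 49.3 CPM in the inputs (0.52 ± 0.26; edgeR adjusted p = 0.403). None of the 9 members passed the test in this comparison, in which 2.51% of all tested IDs did. MYC and CCND1 had an unadjusted p under 0.05, as did 12.5% of all IDs, and pulldown and input levels did not overlap for 4 of 9 members, beside 45.7% of all IDs.

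Near eIF4A the same mRNAs were set against their own inputs. MYC was at 64.3 and 60.6 CPM in the eIF4A pulldowns and 55.0 and 54.3 CPM in the inputs (0.19 ± 0.20). CCND1 was at 25.6 and 14.99 CPM in the pulldowns and 16.7 and 11.6 CPM in the inputs (0.59 ± 0.31), and VEGFA at 37.4 and 37.3 CPM against 36.3 and 44.8 CPM (-0.14 ± 0.26). The edgeR adjusted p ran from 0.477 to 0.911 for these 3, and none of the 9 members was called (2.18% of all IDs were). No member had an unadjusted p under 0.05 (11.8% of all IDs), and levels did not overlap for 6 of 9, beside 48.7% of all IDs. VEGFA had a positive value, 0.06, without eIF4A input replicate 2.

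GFP, without a partner in translation, gave the background of the assay. VEGFA measured 28.2 and 25.3 CPM in GFP pulldowns and 19.97 and 14.7 CPM in GFP inputs, a log2 fold change of 0.62 ± 0.29 (SE; edgeR adjusted p = 0.288). MYC was at 65.7 and 78.6 CPM against 64.4 and 63.2 CPM, and CCND1 at 43.8 and 34.1 CPM against 25.9 and 34.8 CPM. VEGFA and MYC were thus above their inputs in both pulldowns of the untargeted fusion, CCND1 overlapped, and no member was called (4.04% of all IDs were). VEGFA had an unadjusted p under 0.05, as had 16.2% of all IDs, and levels did not overlap for 3 of 9 members, beside 50.1%. The scaling set the pulldown levels in part. With library size in place of TMM, 6 members were called higher in the eIF4E pulldown and 4 in the eIF4A pulldown. This was beside 36.4% and 31.7% of all IDs. In the GFP pulldown that setting called 0 members, beside 567 of 12427 IDs. Over all IDs the median log2 fold change was then 0.89 for eIF4E, 0.82 for eIF4A and 0.24 for GFP.

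The next comparison asked whether eIF4E or eIF4A held a member beyond the GFP background and beyond the difference in total RNA. For eIF4E the input-adjusted log2 difference from GFP was 0.31 ± 0.27 for MYC (SE; 95% interval -0.25 to 0.86), 0.33 ± 0.35 for CCND1 (-0.39 to 1.05) and -0.10 ± 0.39 for VEGFA (-0.90 to 0.69). For eIF4A it was 0.02 ± 0.28 for MYC (-0.56 to 0.59), 0.24 ± 0.40 for CCND1 (-0.58 to 1.05) and -0.76 ± 0.39 for VEGFA (-1.57 to 0.04). All 6 intervals include 0. The size of the MYC value depended on the scaling. With library size it was 0.93 for eIF4E and 0.58 for eIF4A (edgeR adjusted p = 0.0930 and 0.324). All IDs moved with that scaling, to a median of 0.65 for eIF4E and 0.59 for eIF4A. No member had an unadjusted p under 0.05 in either comparison, as 3.80% and 3.31% of all IDs had, and called IDs numbered 0 of 12427 in both (edgeR). The median over the 9 members was -0.06 for eIF4E and -0.15 for eIF4A, beside 0.03 and 0.04 over all tested IDs.

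Small values of this kind changed sign with single libraries. VEGFA in eIF4E was 0.26 without eIF4E input replicate 2, 0.12 without GFP input replicate 2 and 0.01 without eIF4E pulldown replicate 1. CCND1 in eIF4A was -0.02 without eIF4A input replicate 2 and -0.19 without eIF4A pulldown replicate 1, and MYC in eIF4A was -0.01 without that same pulldown and -0.09 without GFP pulldown replicate 1.

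Between pulldowns, before input correction, MYC and VEGFA did pass. The eIF4E pulldowns exceeded the GFP pulldowns by a log2 difference of 0.68 for MYC (edgeR adjusted p = 0.0276) and 1.17 for VEGFA (edgeR adjusted p = 0.00570), 2 of 9 members where 5.46% of all IDs were called. The inputs of the same cells differed by 0.37 and 1.28. For VEGFA the input difference was as large as the pulldown difference. No member was called between eIF4A and GFP pulldowns (1.64% of all IDs were). Between the eIF4A and eIF4E pulldowns, CCND1 was lower in eIF4A with a log2 difference of -1.68 (edgeR adjusted p = 8.36e-05), and MYC with -0.89 (edgeR adjusted p = 0.00629), again 2 of 9 members beside 2.16% of all IDs. Input-adjusted, no member was called between the subunits, and 0 of 12427 IDs were (edgeR; 2.02% had an unadjusted p under 0.05). CCND1 then stood at -0.09 ± 0.40 and MYC at -0.29 ± 0.28 (SE), beside 1.10 ± 0.60 for CCND3 and -0.66 ± 0.36 for VEGFA. CCND1 was 0.24 without eIF4A pulldown replicate 2, -0.53 without replicate 1 and 0.12 without eIF4A input replicate 1.

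**Figure D2:**
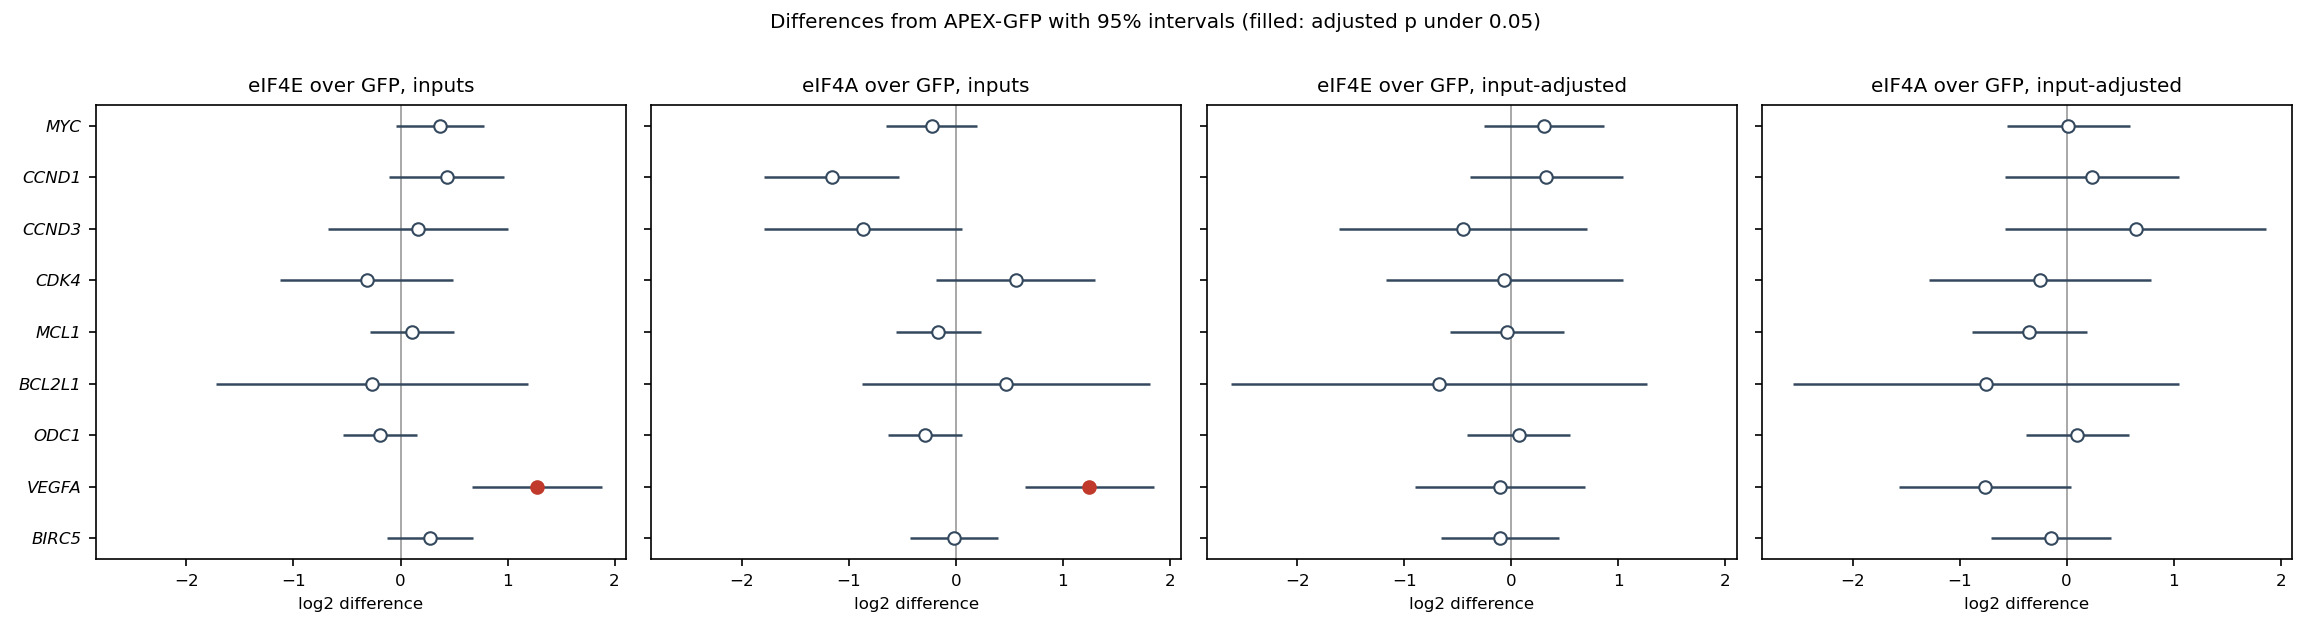
Log2 difference from APEX-GFP (horizontal axis) of each member, with 95% intervals of the edgeR fit, in inputs (left pair of panels) and after input correction (right pair). Filled points have an adjusted p under 0.05. VEGFA is the filled point in both input panels, at 1.28 for eIF4E and 1.25 for eIF4A, and every input-adjusted interval includes 0.

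The remaining members had no call by edgeR with TMM in the comparisons of unstressed cells. MCL1, a short-lived BCL2-family protein that blocks apoptosis, ranged from 51.0 to 119 CPM over the 20 unstressed libraries, with the 2 ends in a C1 and a CBX1 pulldown. ODC1, ornithine decarboxylase of polyamine synthesis, ranged from 71.7 to 118 CPM, and BIRC5, the inhibitor of apoptosis also called survivin, from 40.8 to 69.3 CPM. CDK4, the G1 kinase, ranged from 6.04 to 42.2 CPM, with its lowest value in C1 pulldown replicate 1 and its highest in an eIF4A input. BCL2L1, which encodes the survival protein BCL-xL, had 3 to 25 counts per unstressed library, so its values there carry little information.

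CBX1 pulldowns held the lowest MYC of all unstressed libraries in 1 replicate, 32.8 CPM, and 50.6 CPM in the other, against 48.4 and 63.7 CPM in their inputs. The groups overlap. C1 pulldowns held 78.5 and 44.1 CPM of VEGFA and 35.1 and 33.8 CPM of CCND1, against 35.7 and 33.5 CPM and 16.0 and 23.9 CPM in their inputs. Both genes were higher in each C1 pulldown than in each C1 input, and the larger VEGFA value was that of pulldown replicate 1 alone. No test of the CBX1 and C1 libraries was made.

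The hippuristanol libraries asked whether blocking the helicase moved these mRNAs away from eIF4A. MYC did not pass the test in either direction. It measured 249.4 and 339.5 CPM in the hippuristanol pulldowns, against 321 and 118 CPM in the DMSO pulldowns (log2 fold change 0.42 ± 0.60, SE; 95% interval -0.82 to 1.67; edgeR adjusted p = 0.835). The groups overlap, with DMSO replicate 1 between the 2 hippuristanol values and DMSO replicate 2 below both. Inputs held 137 and 144 CPM of MYC under hippuristanol and 97.8 CPM in the single DMSO input (0.53 ± 0.74; edgeR adjusted p = 1.00).

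On the TMM scale, CCND3, VEGFA and BIRC5 had higher levels in both hippuristanol pulldowns than in both DMSO pulldowns. CCND3 measured 127 and 48.8 CPM against 12.6 and 46.6 CPM, a log2 fold change of 1.57 ± 0.72 (SE; edgeR adjusted p = 0.334). Scaled by library size, CCND3 overlaps, at 108 and 44.8 CPM against 12.3 and 46.7 CPM. VEGFA and BIRC5 do not overlap on that scale. VEGFA measured 209 and 168 CPM against 59.6 and 129 CPM (1.00 ± 0.45; edgeR adjusted p = 0.327). BIRC5 measured 152 and 119 CPM against 41.1 and 90.0 CPM (1.05 ± 0.42; edgeR adjusted p = 0.275). None of the 3 passed the test, and each had an unadjusted p under 0.05, as had 14.4% of 16678 tested IDs.

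Single pulldowns weighed on these values. Without DMSO pulldown replicate 1 they were 0.91 for CCND3, 0.55 for VEGFA and 0.59 for BIRC5, and without DMSO pulldown replicate 2 they were 2.79, 1.66 and 1.71. CCND3 was 0.73 without hippuristanol pulldown replicate 1. With the T0 pulldowns, also unstressed eIF4A cells, in place of DMSO, they were 0.57, 0.41 and -0.69, so that BIRC5 turned. Adjusted for inputs, the log2 differences were 1.78 ± 1.07, 1.06 ± 0.69 and 1.19 ± 0.63 (SE; edgeR adjusted p = 0.931, 0.946 and 0.902).

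BCL2L1 was the member with lower levels in both hippuristanol pulldowns than in both DMSO pulldowns, 33.1 and 24.4 CPM against 42.8 and 63.9 CPM (log2 fold change -0.89 ± 1.06, SE; edgeR adjusted p = 0.778), and 0.60 with T0 as the control. CCND1 was at 74.4 and 62.0 CPM against 76.4 and 26.0 CPM (0.41 ± 0.75), CDK4 at 158 and 123 CPM against 237 and 157 CPM (-0.49 ± 0.38), and MCL1 at 127 and 102 CPM against 185 and 94.3 CPM (-0.30 ± 0.54). The groups of these 3 overlap. With T0 as the control CCND1 was 1.82, MCL1 1.39 and MYC 1.18. ODC1 was at 49.6 and 163 CPM against 96.5 and 129 CPM (-0.08 ± 0.46).

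Single DMSO pulldowns also set some directions. Without replicate 2, MYC was -0.12, CCND1 -0.17 and ODC1 0.15, and without replicate 1, MCL1 was 0.27; ODC1 was 0.53 without hippuristanol pulldown replicate 1. On the TMM scale, levels did not overlap for 4 of 9 members, CCND3 among them, beside 28.4% of all IDs. Called IDs numbered 0 of 16678 (edgeR), and DESeq2 called 721, or 5.12% of IDs with an adjusted p, none of them a member. In inputs and after input correction, edgeR also called 0 members and 0 IDs, with an unadjusted p under 0.05 in 0.018% and 5.51% of all IDs. Input levels did not overlap for 6 of 9 members, beside 55.8% of all IDs.

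**Figure D3:**
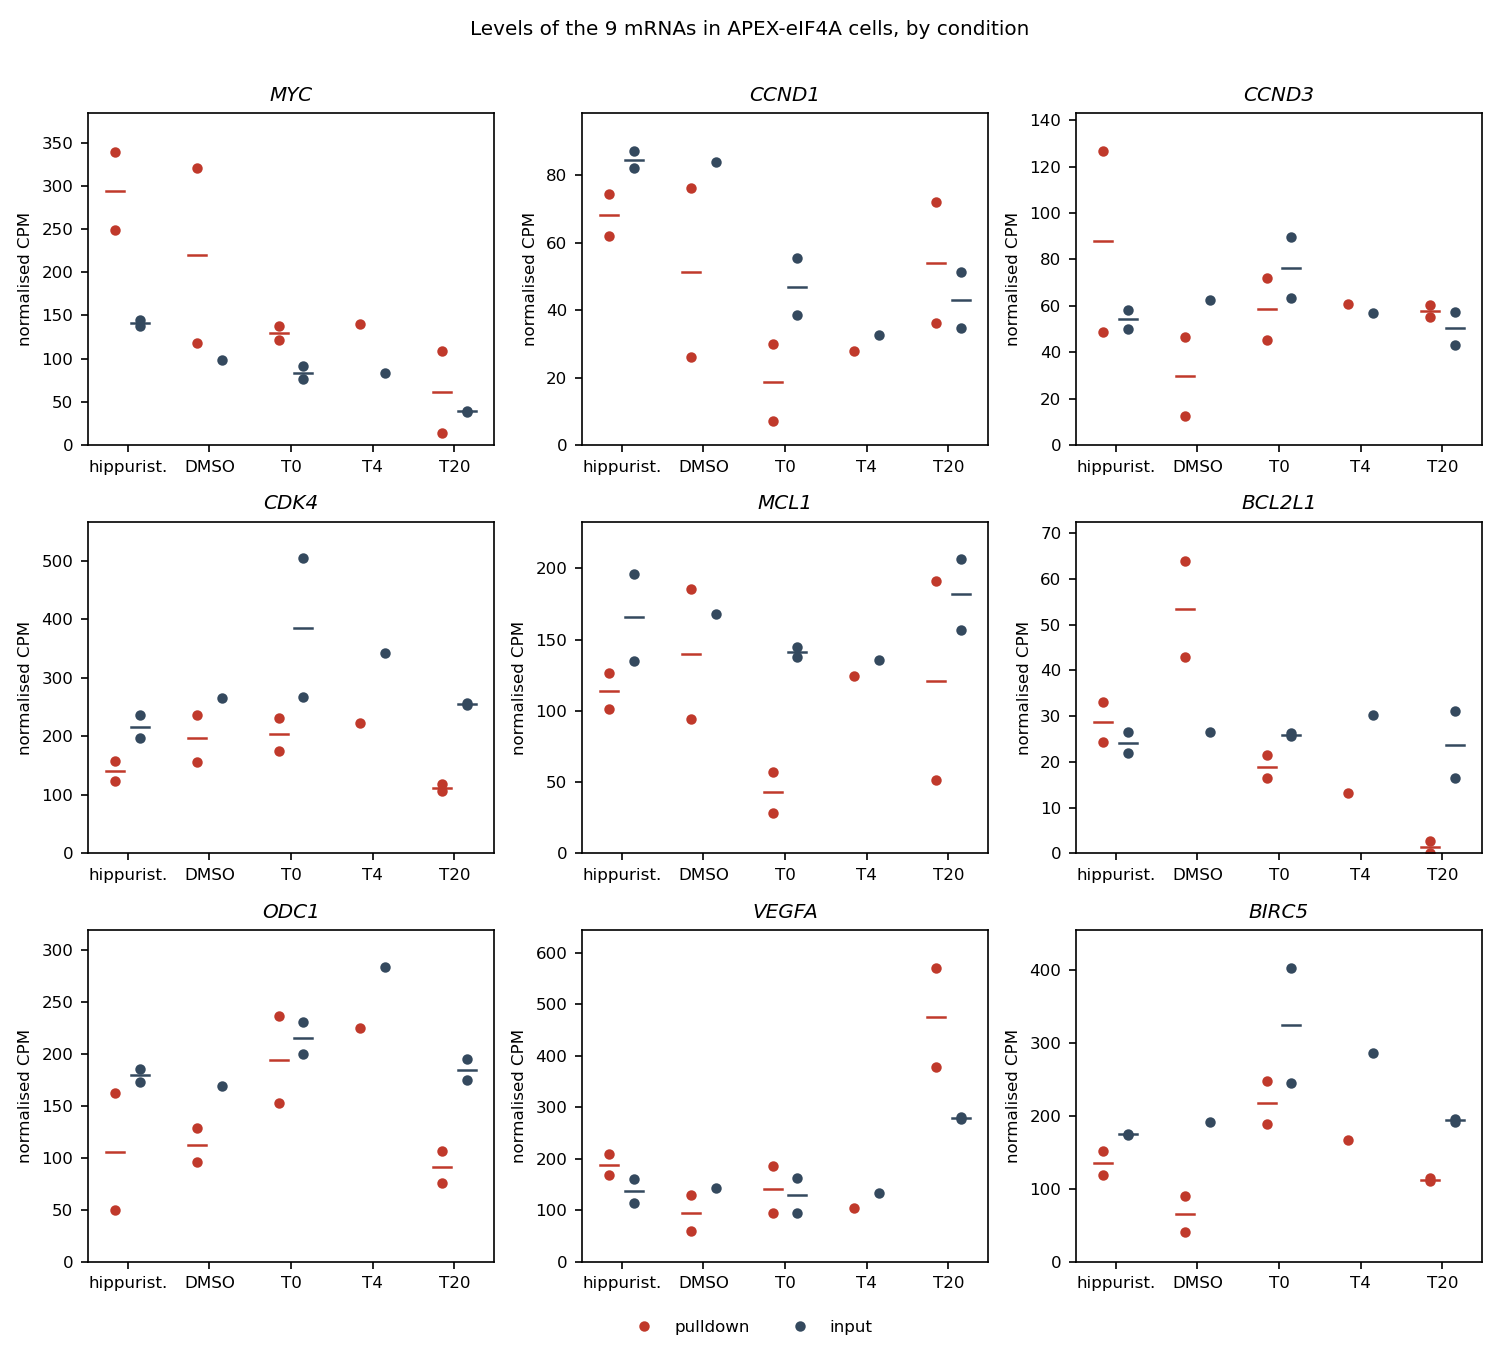
TMM-normalised CPM (vertical axis, from 0) of each member in APEX-eIF4A cells under hippuristanol, DMSO and heat shock at T0, T4 and T20. Each point is 1 library (red, pulldown; dark, input) and each bar is the mean where a group has 2 libraries. VEGFA is highest at T20 in both fractions, MYC inputs are lowest at T20, and BCL2L1 is near 0 in the T20 pulldowns.

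At T20 of heat shock VEGFA had its highest levels of this table. VEGFA inputs measured 94.8 and 164 CPM at T0, 135 CPM at T4 and 281 and 278 CPM at T20. VEGFA pulldowns measured 187 and 95.6 CPM at T0, 105 CPM at T4 and 379 and 571 CPM at T20. In each fraction both T20 libraries lay above both T0 libraries and the T4 library. The log2 fold change of T20 over T0 was 1.11 ± 0.44 in inputs and 1.74 ± 0.45 in pulldowns (SE; edgeR adjusted p = 1.00 and 0.119), and 0.63 ± 0.62 after input correction (edgeR adjusted p = 0.877).

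BCL2L1 pulldowns held 16.5 and 21.5 CPM at T0, 13.2 CPM at T4 and 0 and 2.71 CPM at T20, which are 11, 9, 10, 0 and 3 counts. Its inputs held 26.2 and 25.6 CPM at T0, 30.2 CPM at T4 and 31.0 and 16.4 CPM at T20, so the inputs overlap and the pulldowns do not. Over the summed pulldown counts the ratio of T20 to T0 was 0.0806 (95% exact Poisson interval 0.0153 to 0.272, counting error only). The fitted log2 fold change was -3.70 ± 1.34 (SE; edgeR adjusted p = 0.191) and -3.57 ± 1.69 after input correction (edgeR adjusted p = 0.676). Without T20 pulldown replicate 2, which leaves the library with 0 counts, the fit gave -9.22, and without replicate 1 it gave -2.78.

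MYC inputs held 75.8 and 91.5 CPM at T0, 82.9 CPM at T4 and 38.4 and 39.4 CPM at T20, a log2 fold change of -1.10 ± 0.60 (SE; edgeR adjusted p = 1.00). Both T20 inputs lie below the other 3. MYC pulldowns held 138 and 122 CPM at T0, 140 CPM at T4 and 14.2 and 109 CPM at T20 (-1.06 ± 0.62; edgeR adjusted p = 0.373). The T20 pulldowns differed greatly: without replicate 1 the value was -0.24 and without replicate 2 it was -3.18.

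CDK4, ODC1 and BIRC5 serve cell-cycle entry, polyamine synthesis and mitosis. On the TMM scale, their levels in both T20 pulldowns were lower than in both T0 pulldowns. CDK4 measured 175 and 232 CPM at T0, 223 CPM at T4 and 106 and 118 CPM at T20 (log2 fold change -0.85 ± 0.38, SE). ODC1 measured 236 and 153 CPM at T0, 225 CPM at T4 and 75.5 and 106 CPM at T20 (-1.10 ± 0.47). Scaled by library size, ODC1 overlaps, at 205 and 90.5 CPM at T0 against 76.1 and 101 CPM at T20. CDK4 and BIRC5 do not overlap on that scale. T0 pulldown replicate 2 had the lowest TMM factor of the 9 pulldowns, 0.593. BIRC5 measured 188 and 248 CPM at T0, 167 CPM at T4 and 115 and 111 CPM at T20 (-0.95 ± 0.41). The edgeR adjusted p was 0.245 to 0.266 for these 3. Input-adjusted, the log2 differences were closer to 0, at -0.26 ± 0.53 for CDK4, -0.88 ± 0.65 for ODC1 and -0.21 ± 0.57 for BIRC5 (SE; edgeR adjusted p = 1.00, 0.785 and 1.00), and without T0 input replicate 1 CDK4 was 0.13 and BIRC5 0.10. In inputs the T20 value was -0.60 ± 0.37 for CDK4 and -0.74 ± 0.40 for BIRC5, where T0 replicate 2 was high (506 CPM of CDK4 and 403 CPM of BIRC5, against 267 and 245 CPM in replicate 1). Without T0 input replicate 2 these input values were -0.06 and -0.34.

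Over the 10 groups of this table, the mean log2 CPM of CDK4 and ODC1 correlated at 0.868, the highest of the 36 pairs of members, and that of ODC1 and BIRC5 at 0.768. This is a description over groups that mix inputs with pulldowns and share depth and scaling. In the 10 groups of unstressed cells the same pairs correlated at 0.490 and 0.410. There CDK4 and BCL2L1 had the highest value, 0.805. The 250 bases upstream of the start of CDK4 and of ODC1 (its outermost start) are shown for their correlation over the hippuristanol, DMSO and heat shock groups. Sequences are from RefSeq (GRCh38.p14), 5′ to 3′ on the minus strand, and capitals mark the GC box GGGCGG on either strand. CDK4 lies at chr12:57752311-57752560 and ODC1 at chr2:10448328-10448577.
CDK4: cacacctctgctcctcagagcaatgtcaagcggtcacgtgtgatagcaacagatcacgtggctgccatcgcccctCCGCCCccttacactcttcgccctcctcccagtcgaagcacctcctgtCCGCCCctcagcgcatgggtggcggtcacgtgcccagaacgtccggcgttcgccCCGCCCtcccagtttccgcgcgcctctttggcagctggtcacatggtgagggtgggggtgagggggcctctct
ODC1: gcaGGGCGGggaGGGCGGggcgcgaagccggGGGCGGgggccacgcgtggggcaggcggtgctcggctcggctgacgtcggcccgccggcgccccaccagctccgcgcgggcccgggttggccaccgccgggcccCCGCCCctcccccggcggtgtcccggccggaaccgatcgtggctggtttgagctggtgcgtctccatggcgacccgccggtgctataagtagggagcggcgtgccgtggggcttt
GGGCGG occurs 3 times before CDK4 and 4 times before ODC1, and at least once in 42.6% of 35116 windows of this length. How many windows hold it as often was not counted. The heat shock motif GAANNTTC, read on both strands, occurs in neither and in 5.78% of the windows. The motifs of these windows were chosen after the values were seen, and a match describes letters, not a binding site.

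The first 50 transcribed bases, where the cap-bound complex loads, could be read for 4 members, some with several starts. They held 68.0% G or C for CDK4, 72.0% and 80.0% for ODC1, 62.0% and 66.0% for BCL2L1 and 56.0% to 86.0% for CCND3, beside a median of 60.0% over all 35116 windows. CGGCGG, a repeat of the kind known from eIF4A-dependent leaders, occurred in 1 of the 3 CCND3 windows, in no window of the other 3 members and in 6.71% of all windows.

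MCL1 and CCND1 had higher levels in the T20 pulldowns as means, with wide spread. MCL1 pulldowns held 56.8 and 28.7 CPM at T0, 125 CPM at T4 and 51.4 and 191 CPM at T20 (log2 fold change 1.48 ± 0.57, SE; edgeR adjusted p = 0.209), so the T0 and T20 values overlap. Without T20 pulldown replicate 2 the value was 0.25. CCND1 pulldowns held 29.9 and 7.17 CPM at T0, 27.8 CPM at T4 and 36.1 and 72.2 CPM at T20 (1.495 ± 0.80; edgeR adjusted p = 0.335), with no overlap of T0 and T20. It was 0.86 without T0 pulldown replicate 2, which has 3 counts, 0.91 without T20 pulldown replicate 2 and 2.92 without T0 pulldown replicate 1. Input-adjusted, CCND1 was at 1.63 ± 1.09 (edgeR adjusted p = 0.758). CCND3 showed the least difference, with 71.8 and 45.4 CPM at T0 and 60.2 and 55.0 CPM at T20 (-0.03 ± 0.70), and was positive without T0 pulldown replicate 1 (0.35) and without T20 pulldown replicate 2 (0.03).

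Counted together, no member was called by edgeR at T20 over T0 in inputs, in pulldowns or after input correction, where 0.042%, 0.144% and 0% of 16678 IDs were called. In pulldowns 6 of 9 members had an unadjusted p under 0.05, as had 17.1% of all IDs. These were CDK4, MCL1, BCL2L1, ODC1, VEGFA and BIRC5. On the TMM scale, levels did not overlap between T20 and T0 pulldowns for 7 of 9 members, 2 higher and 5 lower. This was beside 31.8% of all IDs, 19% higher and 12.8% lower. Among those lower, MYC and ODC1 overlap when scaled by library size. MYC is then at 119 and 72.1 CPM at T0 against 14.3 and 103 CPM at T20. In inputs VEGFA had an unadjusted p under 0.05 (1.37% of all IDs), and levels did not overlap for 7 of 9 members, beside 41.2%. After input correction BCL2L1 had an unadjusted p under 0.05 (7.35% of all IDs). DESeq2 called VEGFA (log2 fold change 1.72, DESeq2 adjusted p = 0.0149) and BCL2L1 (-3.71, DESeq2 adjusted p = 0.0170) in pulldowns, beside 7.92% of all IDs with an adjusted p. The median over the members was -0.22 in inputs, -0.85 in pulldowns and 0.04 after input correction, beside 0.01, 0.09 and 0.20 over all IDs.

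At T0 itself, without stress, MCL1 and CDK4 were lower in the eIF4A pulldown than in its input: MCL1 at 56.8 and 28.7 CPM against 145 and 138 CPM (log2 fold change -1.70 ± 0.57, SE; edgeR adjusted p = 0.347) and CDK4 at 175 and 232 CPM against 267 and 506 CPM (-0.93 ± 0.38; edgeR adjusted p = 0.422). Neither passed. CDK4 was -0.39 without T0 input replicate 2 and -1.31 without T0 input replicate 1. MCL1 in the DMSO libraries, also of eIF4A cells without heat shock, was at 185 and 94.3 CPM in pulldowns and 168 CPM in the input, so those levels overlap. None of the 9 members was called (0.36% of all IDs were). Both had an unadjusted p under 0.05, as had 10.7% of all IDs, and levels did not overlap for 5 of 9 members, beside 47% of all IDs. The median over all IDs was -0.55 in this comparison, beside -0.46 over the members.

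**Figure D4:**
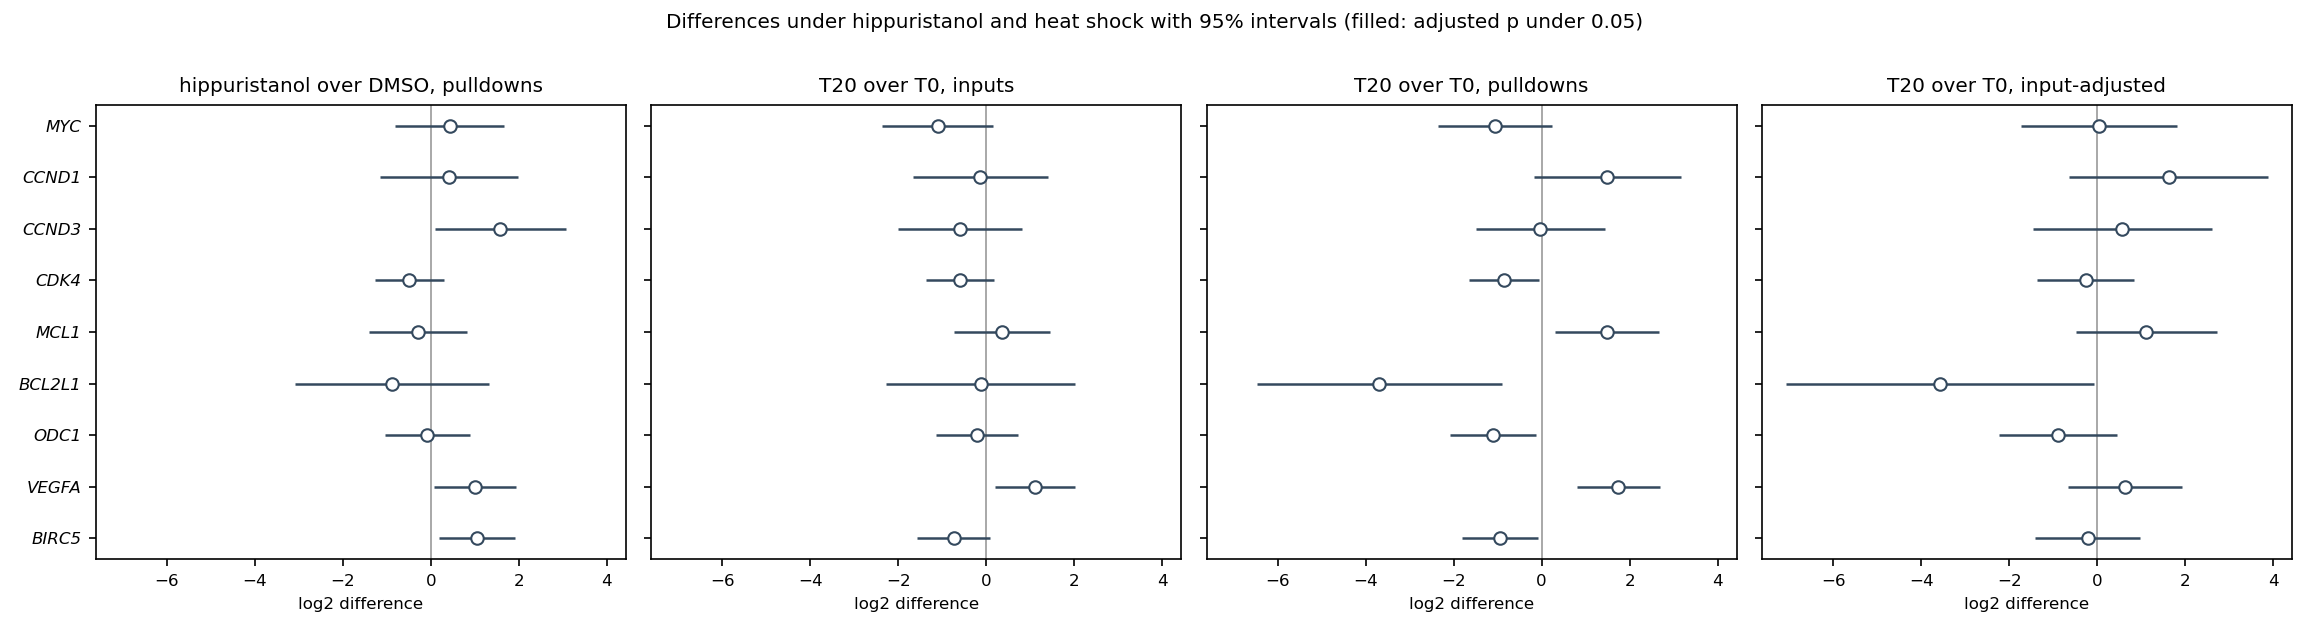
Log2 difference (horizontal axis) of each member, with 95% intervals of the edgeR fit, for hippuristanol over DMSO in pulldowns and for T20 over T0 in inputs, in pulldowns and after input correction. Filled points would have an adjusted p under 0.05, and there are none. VEGFA lies at 1.11 in T20 inputs and 1.74 in T20 pulldowns, and BCL2L1 at -3.70 in T20 pulldowns.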

How the data were processed

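The authors deposited counts, as whole numbers with no normalization, for each Ensembl gene ID with its version. Cutadapt, HISAT2 and featureCounts, with GRCh38, are named per the submitters' processing notes. Their versions, the strand setting and the handling of reads with several matches were not stated. Titles gave groups and replicate numbers. 1 column name stands in the descriptions of 2 samples and was read by its table, as the second unstressed eIF4A input or as the DMSO input.

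Each table had its own fit in edgeR 4.0.16 (R 4.3.3): filterByExpr, TMM, estimateDisp, robust glmQLFit with a mean for every group over all libraries, and a 2-sided quasi-likelihood F test. Benjamini-Hochberg adjustment ran over 12427 or 16678 IDs, and an adjusted p under 0.05 is a call. Input-adjusted values are differences of pulldown over input between groups. Groups with 1 library were assumed to vary like the others. SE is the size of the log2 fold change over the square root of F. Replicate correlations used log2 CPM (prior count 2) where it averaged 5 or more. No pair of replicates differed by as little as counting noise (chi-square per ID 1.31 to 77.3). The fit was tested on simulated data. Alternatives were library size, DESeq2 1.42.0, no filter on counts, a fit to the compared libraries alone, a block for replicate numbers, no correction for inputs, T0 as control, and each library left out.

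The 9 members are always named; they and all lists were chosen with earlier results of these data known. The 9 lists of related genes could not be matched, since 0 rows of the reference table hold an Ensembl ID.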

Additional observations from a re-analysis of the deposited data

Results flagged for a closer look

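3 values stood out in the C1 and T4 groups, which no test compared, though their libraries were part of the fits. The search was for higher values only. Lower ones are not listed, such as CCND1 and CCND3, for which each C1 input lay below each GFP input. The C1 pulldowns held 2.29 times the VEGFA of the GFP pulldowns, and the C1 inputs 2.0 times that of the GFP inputs, as ratios of mean normalised CPM; in both fractions each C1 library lay above each GFP library. MCL1 in the single T4 pulldown was 2.91 times the mean of the T0 pulldowns. None of these differences was tested.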

How the results depend on the processing

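Of 1393 recomputed values over members and comparisons, 1224 kept their direction and their side of the threshold. A further 144 changed sign, whether or not a call was gained or lost with it. Among those that kept their sign, 9 lost a call and 16 gained one. The cause was not tested. With library size in place of TMM, called members numbered 6 for eIF4E and 4 for eIF4A pulldown over input. For inputs over GFP they numbered 0 for eIF4E and 2 for eIF4A, both lower and VEGFA not among them. Called IDs in these comparisons numbered 4525, 3940, 778 and 439. In the inputs most were lower, 723 of the 778 and 431 of the 439. Called IDs numbered 43 for eIF4E over GFP input-adjusted, 74 for T20 over T0 pulldowns and 188 for T0 pulldown over input. VEGFA was then 0.54 for eIF4E over GFP input-adjusted and 0.67 for eIF4A pulldown over input, where the median over all IDs was 0.65 and 0.82. CCND3 was 0.34 for T20 over T0 pulldowns and BIRC5 0.00339 for T20 over T0 input-adjusted. Without a count filter 2 members were called in eIF4A inputs, and called IDs numbered 16 and 19 for eIF4E and eIF4A over GFP input-adjusted, 31 for hippuristanol pulldowns, and 4, 141 and 1 for T20 over T0 inputs, pulldowns and input-adjusted. DESeq2 called 14 and 15 IDs for eIF4E and eIF4A over GFP input-adjusted (MYC in eIF4A -0.0147), 159 for eIF4A inputs, 721 and 15 for hippuristanol pulldowns and input-adjusted, 21, 1116 and 77 for T20 over T0 inputs, pulldowns (2 members) and input-adjusted, and 262 for T0 pulldown over input. Without input correction 678, 204 and 269 IDs were called for eIF4E over GFP (2 members), eIF4A over GFP and eIF4A over eIF4E (2 members), and 24 for T20 over T0; VEGFA was 1.17 in eIF4E, and MYC, CCND1 and VEGFA were -0.21, -0.92 and 0.48 in eIF4A. With only the libraries compared, called IDs numbered 722 for eIF4A pulldown over input, 1285 and 519 (2 members) for eIF4E and eIF4A inputs, 379 and 0 for T20 over T0 inputs and pulldowns, and 33 for T0 pulldown over input, and MYC in eIF4A over GFP input-adjusted was -0.00393. With T0 in place of DMSO, MCL1, BCL2L1 and BIRC5 were 1.39, 0.60 and -0.69.

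Leaving out 1 library at a time, called members ranged from 0 to 1 for eIF4E inputs and were 0 for eIF4A inputs. Called IDs ranged from 72 to 106 and from 4 to 15 there, from 99 to 401 for eIF4E, 88 to 149 for eIF4A and 140 to 284 for GFP pulldown over input, 0 to 7 for eIF4A over GFP input-adjusted, 0 to 14 and 0 to 3 for hippuristanol pulldowns and input-adjusted, 0 to 4 and 0 to 54 for T20 over T0 inputs and pulldowns, and 37 to 55 for T0 pulldown over input. Printed log2 values that changed sign ranged from -0.33 to 0.26 for VEGFA in eIF4E over GFP, -0.0916 to 0.18 for MYC and -0.19 to 0.58 for CCND1 in eIF4A over GFP, -0.53 to 0.24 for CCND1 in eIF4A over eIF4E, and -0.27 to 0.0563 for VEGFA in eIF4A pulldown over input. Under hippuristanol they ranged from -0.12 to 1.32 for MYC, -0.17 to 1.39 for CCND1, -0.70 to 0.27 for MCL1 and -1.19 to 0.53 for ODC1, and at T20 from -0.31 to 0.35 for CCND3 in pulldowns, and from -0.79 to 0.13 for CDK4 and -0.61 to 0.10 for BIRC5 input-adjusted. The single DMSO input could not be left out.

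The replicate numbers were not taken to pair libraries: deviations of libraries with the same number correlated at -0.12 to 0.14 across 2099 IDs of unstressed cells. With a replicate block, called members stayed at 1 for eIF4E and for eIF4A inputs and at 0 in the other comparisons fitted, and called IDs changed beyond 1.5 times in 1 comparison, T20 over T0 pulldowns, with 8. For T20 over T0 inputs the correlation was -0.70, and a fit with crossed numbers, chosen after seeing the data, called 5 IDs against 7. Hippuristanol over DMSO in inputs and input-adjusted had no block fit, since the DMSO input has no number.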
